A study of Arabidopsis thaliana with 4 samples.

Results

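The cutin synthesis genes described here are 10 Arabidopsis loci picked by locus identifier: LACS2 (AT1G49430), CYP86A4 (AT1G01600), CYP86A8 (AT2G45970), CYP77A6 (AT3G10570), GPAT4 (AT1G01610), GPAT6 (AT2G38110), GPAT8 (AT4G00400), DCR (AT5G23940), CUS2 (AT5G33370) and BDG1 (AT1G64670). All 10 were found among the 24750 genes listed in the deposited count table, and all 10 had enough reads to be tested. They were measured by Oxford Nanopore direct RNA sequencing (DRS), in which native poly(A) RNA molecules are read in a protein pore without PCR. Read numbers are the deposited estimated counts rounded to whole reads. The data came from 2 floral bud libraries and 2 seedling libraries of the Columbia-0 accession (Col-0), each a biological replicate. Floral buds were taken from plants that had spent a further 3 weeks in soil after their 14 days on plates and had reached growth stages 6.0 to 6.1. Seedlings were harvested after 14 days on ½ MS plates. Plants of both stages, on plates and in soil, grew with 16 h of light and 8 h of dark. Organ, age and growth medium therefore changed together between the stages and cannot be told apart.

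Cutin is the polyester that forms the frame of the plant cuticle on the outer face of the shoot epidermis. Fatty acids are first activated as coenzyme A esters by long-chain acyl-CoA synthetases and hydroxylated at the end of the chain by CYP86A and within the chain by CYP77A cytochrome P450 enzymes. Glycerol-3-phosphate acyltransferases (GPATs) then join them to glycerol, and the resulting monoacylglycerols are exported and linked into polymer by extracellular cutin synthases of the GDSL lipase family. The question put to the data was how the transcripts of each step differed between floral buds and seedlings.

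Part of the pathway was much higher in floral buds, while other genes of the same steps did not pass the test. Differentially expressed genes (DEGs), with an FDR below 0.05 and a fold change above 2 in edgeR's quasi-likelihood test, were 6 of the 10 genes in the direction of floral buds (LACS2, CYP86A4, CYP77A6, GPAT6, DCR and CUS2) and 0 of the 10 in the direction of seedlings. Over all 18647 tested genes, 10.3% were DEGs higher in floral buds and 9.52% were DEGs lower in floral buds. DESeq2 and limma-voom also called 6 genes higher and 0 lower, and 0 of the 10 were lower at an unadjusted p below 0.05 in edgeR, DESeq2 or limma-voom. The median log2 fold change (floral buds over seedlings) of the 10 genes was 3.42, against 0.06 for all tested genes. In 8 of the 10 genes both floral bud libraries lay above both seedling libraries in normalized CPM (read counts scaled to library size and upper quartile), which was also true of 30.5% of all tested genes. The 10 genes were chosen with earlier results of these data known, so these counts describe the list and do not test it. An exact permutation test of 2 libraries against 2 cannot give a p below 0.33, so the tests on single genes rest on the spread that edgeR shared across genes.

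**Figure D1:**
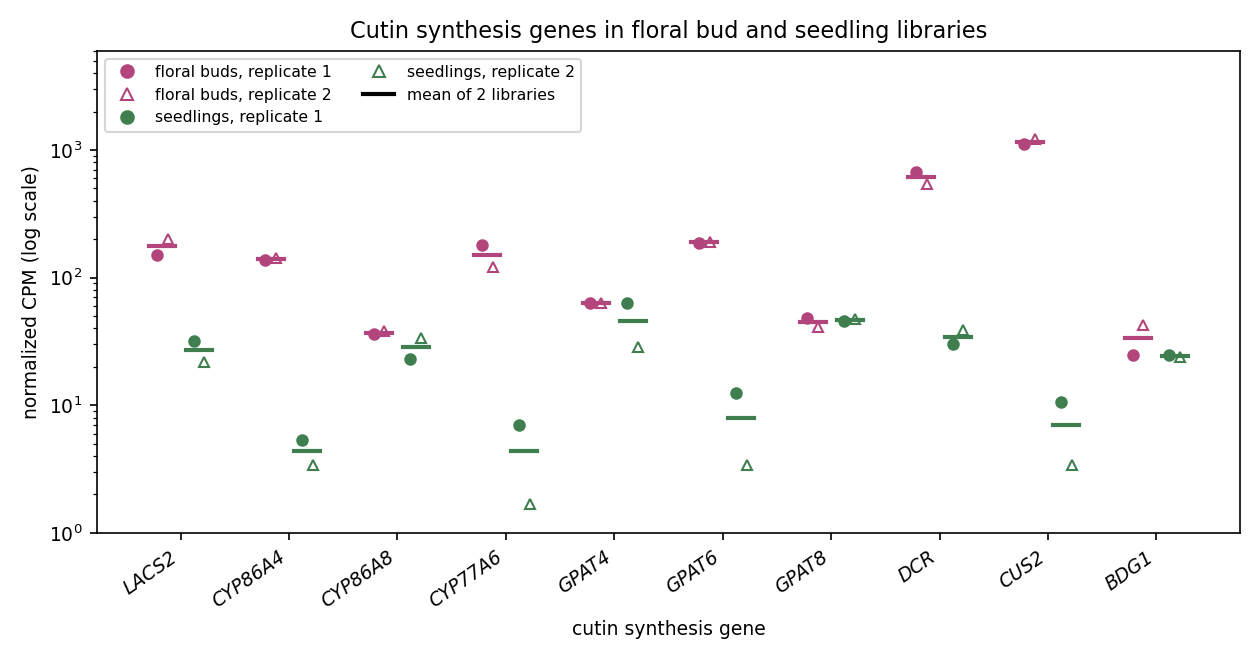
Normalized CPM (log axis) of the 10 cutin synthesis genes, in order of their step in the pathway, with 1 symbol for each library and a bar at the mean of the 2 libraries of a stage. CUS2 and DCR stand at means of 1166 and 610 in floral buds, against 6.99 and 34.5 in seedlings, while the GPAT8 symbols of the stages lie between 41.0 and 48.6.

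Several of these genes belong to families with similar sequences, so the families were first compared at the sequence level to see how far their members differ. The following 60-base coding windows from the TAIR10.1 sequence (RefSeq) hold the longest run that GPAT4 and GPAT6 share, 22 bases, with capitals marking bases that differ from GPAT4. The genomic interval of each window contains an intron. It is chr1:223062-223575 on the minus strand for GPAT4, chr4:175502-176063 on the minus strand for GPAT8 and chr2:15953651-15954753 on the minus strand for GPAT6.
GPAT4: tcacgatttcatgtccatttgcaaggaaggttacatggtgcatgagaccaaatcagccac
GPAT8: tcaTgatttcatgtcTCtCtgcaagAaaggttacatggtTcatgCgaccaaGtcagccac
GPAT6: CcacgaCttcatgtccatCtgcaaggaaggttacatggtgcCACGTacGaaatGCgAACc
In this stretch GPAT8 differed from GPAT4 at 8 and GPAT6 at 14 of the 60 positions. GPAT4 and GPAT8 were the closest pair, with 83.0% identity over 1503 aligned bases and a longest shared run of 35 bases, which lies outside this window.

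The corresponding windows of the CYP86A genes hold the longest run common to CYP86A4 and CYP86A8, 29 bases, with capitals marking bases that differ from CYP86A4. They lie in single exons at chr1:220230-220289 on the plus strand for CYP86A4, chr2:18913211-18913270 on the minus strand for CYP86A8 and chr1:23632981-23633040 on the minus strand for CYP86A7, a relative outside the 10 genes.
CYP86A4: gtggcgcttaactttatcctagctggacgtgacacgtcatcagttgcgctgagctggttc
CYP86A8: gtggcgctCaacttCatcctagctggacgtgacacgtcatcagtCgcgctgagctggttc
CYP86A7: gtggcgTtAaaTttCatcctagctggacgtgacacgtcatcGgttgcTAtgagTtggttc
CYP86A8 differed from CYP86A4 at 3 positions and CYP86A7 at 8. Beyond these windows, CYP86A4 was closest to CYP86A2, with 83.0% identity in aligned stretches covering 70.4% of its transcript. CYP77A6 was closest to CYP77A4, with 81.0% identity covering 72.0%. A search of the other annotated transcripts found no near-identical copy of any of the 10 genes, where a copy needed 95% identity along 80% of the length. Several positions in these windows therefore differ between the members. Errors in the reads were not considered here, and how the read assignment handled ambiguous reads was not tested.

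The first step, activation of the fatty acid, is represented by LACS2, a long-chain acyl-CoA synthetase needed for normal leaf cuticles. LACS2 (chr1:18290942-18295905, plus strand, 19 exons, 2508 bases spliced) had 121 and 142 reads in floral buds, against 18 and 13 reads in seedlings. Both floral bud libraries were well above both seedling libraries. Normalized, it averaged 176 ± 35.2 CPM in floral buds and 26.9 ± 6.89 CPM in seedlings (SD, n = 2 each). This was a 6.49-fold difference (log2 fold change 2.70, SE 0.30, FDR 4.58e-18 in edgeR), the smallest among the 6 DEGs.

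Hydroxylation at the chain end divided into a gene that differed strongly and a gene that did not pass the test. CYP86A4 (chr1:218834-221286, plus strand, 2 exons) is a fatty acid hydroxylase known for its part in floral cutin. It had 110 and 101 reads in floral buds, against 3 and 2 reads in seedlings. Seedling libraries were thus at or under 3 reads, the smallest number taken as detected, and the stages did not overlap. On the normalized scale the means were 140 ± 3.94 CPM in floral buds and 4.34 ± 1.35 CPM in seedlings (SD, n = 2 each). The ratio of the summed and scaled reads was 32.3 (95% exact interval 13.6 to 101, counting error only), with an edgeR log2 fold change of 4.96 (SE 0.45, FDR 9.57e-27).

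CYP86A8 (chr2:18912095-18914739, minus strand, 1 exon), also known as LACERATA for the organ fusions of its mutant, had 29 and 27 reads in floral buds, against 13 and 20 reads in seedlings. Scaled for depth, these were 36.1 and 38.1 CPM in floral buds and 22.9 and 33.9 CPM in seedlings. The stages did not overlap, but the gap was small and the log2 fold change of 0.38 (SE 0.41, edgeR FDR 0.573) did not pass the test. The ratio of summed reads was 1.30, with an exact interval of 0.830 to 2.06 (counting error only). PIP1B lies 112 bp away, end to end with CYP86A8 on the opposite strand. It had 422 and 375 reads in floral buds, against 402 and 416 reads in seedlings. Whether reads running past the annotated end of PIP1B were counted for CYP86A8 was not tested.

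CYP77A6 (chr3:3301887-3303982, plus strand, 1 exon) is the in-chain hydroxylase that makes dihydroxypalmitate, the main cutin monomer of flowers. It had 144 and 86 reads in floral buds, against 4 and 1 reads in seedlings. Floral buds were far above seedlings in each library, and the floral bud replicates themselves differed more than for CYP86A4, at 179 and 121 CPM. The fold change was 33.5 (log2 5.07, SE 0.44, edgeR FDR 6.09e-29), with an exact interval of 14.9 to 109 for the ratio of summed reads. Because so few seedling reads carried the estimate, it was 80.2-fold without seedlings replicate 1 and 20.8-fold without seedlings replicate 2.

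The neighbouring gene CYP77A7 lies 182 bp upstream of CYP77A6 on the same strand, and its longest shared run with CYP77A6 is 34 bases. It had 2 and 3 reads in floral buds and 0 and 0 in seedlings, which did not pass the test (edgeR FDR 0.199).

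In the acyltransferase step, GPAT6 differed strongly between the stages, whereas for GPAT4 and GPAT8 the libraries of the stages overlapped. The encoded enzymes carry acyltransferase and phosphatase activities and release monoacylglycerols. In Arabidopsis GPAT4 and GPAT8 are known for leaf and stem cutin and GPAT6 for flower cutin. GPAT6 (chr2:15952496-15955752, minus strand, 2 exons) had 150 and 135 reads in floral buds, against 7 and 2 reads in seedlings. Normalized, it averaged 189 ± 2.64 CPM in floral buds and 7.87 ± 6.34 CPM in seedlings (SD, n = 2 each). It was 23.7-fold higher in floral buds (log2 4.57, SE 0.37, edgeR FDR 1.91e-32), and the estimate was 52.7-fold without seedlings replicate 1 and 15.0-fold without seedlings replicate 2.

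GPAT4 (chr1:221642-224351, minus strand, 4 exons) had 51 and 45 reads in floral buds, against 36 and 17 reads in seedlings. After scaling, both floral bud libraries and seedlings replicate 1 were at 63.5 CPM and only seedlings replicate 2 was lower, at 28.8 CPM. Its log2 fold change of 0.47 (SE 0.33, edgeR FDR 0.332) therefore rested on the seedling replicates, being 1.13 without seedlings replicate 1 (FDR 0.0533) and -0.01 without seedlings replicate 2 (FDR 0.995).

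GPAT8 (chr4:173953-176870, minus strand, 4 exons) had 39 and 29 reads in floral buds, against 26 and 28 reads in seedlings. Both seedling libraries, at 45.9 and 47.4 CPM, lay between the floral bud libraries, at 48.6 and 41.0 CPM. Its log2 fold change was -0.06 (SE 0.35, edgeR FDR 0.942), and turned to 0.04 with scaling by library size alone, so no direction was given by these libraries. The interval of the ratio of summed reads was 0.665 to 1.40.

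GPAT4 and CYP86A4 are adjacent on chromosome 1, end to end on opposite strands with 355 bp between the annotated genes. Despite this position CYP86A4 was a DEG and GPAT4 was not. Whether reads running past an annotated end were counted for the neighbour was not tested.

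Among the GPAT genes and among the CYP86A genes of the 10, the makeup of the reads differed between the stages. Relatives outside the 10 genes were not counted in these shares. GPAT6 contributed 62.5% (95% Wilson interval 56.2 to 68.4) and 64.6% (57.9 to 70.8) of the GPAT4, GPAT6 and GPAT8 reads in the floral bud libraries, against 10.1% (5.00 to 19.5) and 4.26% (1.17 to 14.2) in the seedling libraries. The intervals of the stages did not overlap, although they cover counting error only. The mean difference was 56.3 percentage points, with p = 0.33 in a two-sided exact permutation test over libraries, the smallest this design allows. In seedlings replicate 1 GPAT4 was the most read of the 3 genes (52.2%), and in seedlings replicate 2 it was GPAT8 (59.6%), so the order of GPAT4 and GPAT8 was not the same in the replicates. The summed level of the 3 genes was 299 and 295 normalized CPM in floral buds, against 122 and 79.6 in seedlings.

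CYP86A4 contributed 79.1% (95% Wilson interval 71.6 to 85.1) and 78.9% (71.0 to 85.1) of the CYP86A4 and CYP86A8 reads in floral buds, against 18.8% (6.59 to 43.0) and 9.09% (2.53 to 27.8) in seedlings. Here too the intervals of the stages did not overlap, but the seedling shares rested on 16 and 22 reads. CYP86A7, with 58 and 46 reads in floral buds and 0 and 0 in seedlings, was not counted, and with it the floral bud shares of CYP86A4 would be lower. The mean difference was 65.1 percentage points (p = 0.33, exact permutation test, the smallest possible).

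**Figure D2:**
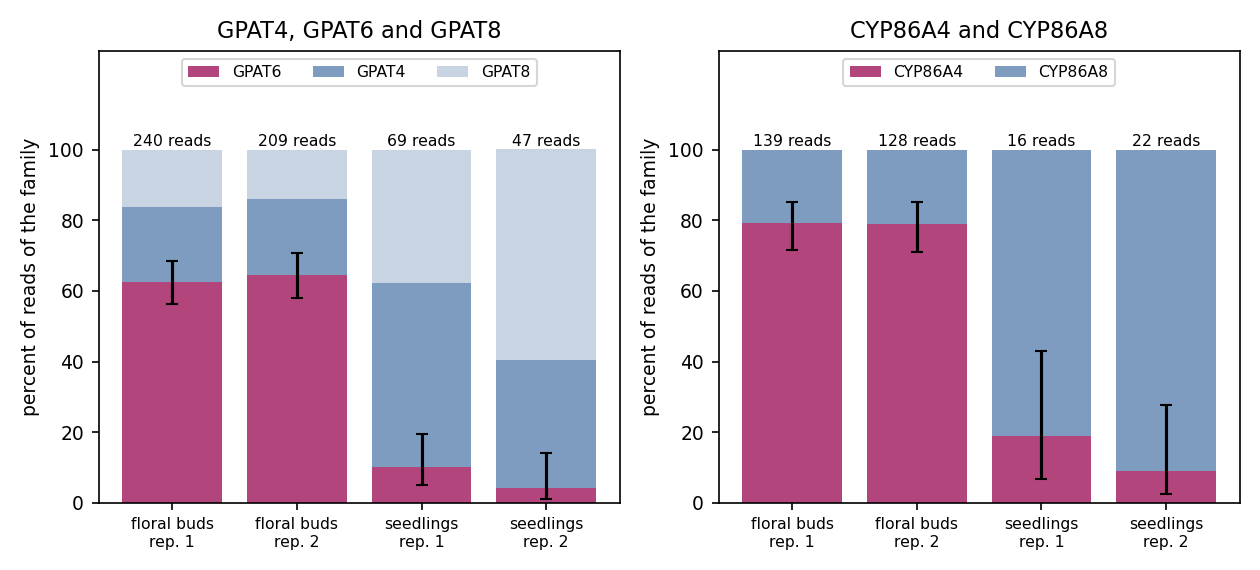
Share of reads (percent) within GPAT4, GPAT6 and GPAT8 (left) and within CYP86A4 and CYP86A8 (right) in each library, with the number of reads above each bar and 95% Wilson intervals for GPAT6 and CYP86A4. GPAT6 takes 62.5% and 64.6% in floral buds, against 10.1% and 4.26% in seedlings. The word family on the axes means these genes only, without other relatives.

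DCR encodes a BAHD acyltransferase that is required for dihydroxypalmitate to enter cutin. DCR (chr5:8076312-8079866, minus strand, 2 exons) had 541 and 387 reads in floral buds, against 17 and 23 reads in seedlings. The lowest floral bud library was far above the highest seedling library. Normalized, it averaged 610 ± 90.2 CPM in floral buds and 34.5 ± 6.34 CPM in seedlings (SD, n = 2 each), a 17.6-fold difference (log2 4.14, SE 0.23, edgeR FDR 2.27e-69). With a range of 3.95 to 4.33 when each library was left out in turn, its log2 fold change moved least among the 6 DEGs.

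CUS2, a cutin synthase of the GDSL lipase family known from the cuticular ridges of sepals, showed the largest difference of the 10 genes. CUS2 (chr5:12602468-12604832, minus strand, 5 exons) had 900 and 857 reads in floral buds, against 6 and 2 reads in seedlings. The replicates of floral buds were close, at 1121 and 1210 CPM, and seedlings stood at 10.6 and 3.39 CPM. The fold change was 164 (log2 7.36, SE 0.27, edgeR FDR 3.52e-153). Its size depended on 8 seedling reads, with an exact interval of 85.2 to 390 for the ratio of summed reads, and was 325-fold without seedlings replicate 1 and 108-fold without seedlings replicate 2. The gene overlaps the pseudogene AT5G33365 by 9 bp on the same strand.

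BDG1 (BODYGUARD) encodes an extracellular protein of the alpha/beta-hydrolase fold family that is needed for an intact cuticle. BDG1 (chr1:24030743-24033674, minus strand, 4 exons) had 20 and 30 reads in floral buds, against 14 and 14 reads in seedlings. In normalized CPM, floral buds replicate 1 (24.9) was almost level with the seedling libraries (24.7 and 23.7), and floral buds replicate 2 was higher (42.4). The log2 fold change of 0.46 (SE 0.43, edgeR FDR 0.509) did not pass the test, and without floral buds replicate 2 it was 0.02. The last 38 bp of the gene overlap MGL, on the opposite strand, which had 71 and 50 reads in floral buds and 31 and 28 reads in seedlings. The step that joined reads to genes set no strand, so the counts of BDG1 and MGL are uncertain in the overlap if no later step separated them.

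The order of the genes by level also differed between the stages. Levels were compared between genes as normalized CPM per kb of spliced length. DRS reads each RNA molecule once, also where a long molecule is read in part, so this division lowers the values of long transcripts. In floral buds CUS2 was highest at 743 CPM per kb, the 151st of all listed genes on this scale, and DCR followed at 313 CPM per kb. GPAT6, CYP77A6, LACS2 and CYP86A4 came next, between 85.3 and 60.2 CPM per kb. GPAT4 (33.2), GPAT8 (22.4), BDG1 (18.1) and CYP86A8 (14.0 CPM per kb) were the lowest. In seedlings the order began with GPAT4 and GPAT8 at 24.1 and 23.4 CPM per kb, which did not differ beyond their spread, followed by DCR at 17.7 CPM per kb. BDG1 stood at 13.0, CYP86A8 and LACS2 each at 10.7, and CUS2, GPAT6, CYP77A6 and CYP86A4 at 4.46, 3.56, 2.09 and 1.87 CPM per kb. The 4 genes lowest in seedlings were thus all among the 6 highest in floral buds. Those 4 were near the detection limit in seedlings, and their order there was not resolved. Without division by length the same genes made up these 4 and these 6, but the order changed in part. In floral buds LACS2 (176 CPM) then lay above CYP77A6 (150), and CYP86A8 (37.1) above BDG1 (33.6). In seedlings GPAT8 and GPAT4 were at 46.7 and 46.2 CPM, and CYP86A8 (28.4) and LACS2 (26.9) lay above BDG1 (24.2).

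Together the 10 genes took 0.264% and 0.275% of the reads in floral buds, against 0.0249% and 0.0197% in seedlings. CUS2 alone made up 42.8% and 46.6% of the reads of the 10 genes in floral buds, against 4.17% and 1.64% in seedlings. DCR made up 25.7% and 21.0% in floral buds, against 11.8% and 18.9% in seedlings. In seedlings the 4 genes that were not DEGs (GPAT4, GPAT8, CYP86A8 and BDG1) had the majority of the reads of the 10 genes.

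The promoters were then searched for a pair of known elements, in windows from 250 bases before to 50 bases after the annotated start in TAIR10.1 (RefSeq), on both strands. The L1 box (TAAATGCA or TAAATGTA) is bound by epidermal homeodomain factors such as ATML1, and the GCC box (GCCGCC) by factors of the ERF family. An L1 box was found for 2 of the 10 genes, in CUS2 at base -74 and in GPAT8 after the start at base 26, and in 5.10% of all 27443 promoters. A GCC box was found for 1 of the 10, in GPAT6 at base -172, and in 2.57% of all promoters. Neither element was found in the windows of the other 7 genes, among them the DEGs LACS2, CYP86A4, CYP77A6 and DCR. The upstream bases of the DEGs with a match are shown because CUS2 had the largest difference between the stages and GPAT6 had the largest of the 3 GPAT genes. Capitals mark the element, which in both lies on the strand opposite to the gene and so appears as its reverse complement. The CUS2 sequence is chr5:12604833-12605082 and the GPAT6 sequence is chr2:15955753-15956002, both on the minus strand.
CUS2: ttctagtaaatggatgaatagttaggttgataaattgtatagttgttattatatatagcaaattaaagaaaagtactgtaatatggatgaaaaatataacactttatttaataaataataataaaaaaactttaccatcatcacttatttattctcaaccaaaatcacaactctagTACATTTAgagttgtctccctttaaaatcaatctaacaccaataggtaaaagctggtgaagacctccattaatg
GPAT6: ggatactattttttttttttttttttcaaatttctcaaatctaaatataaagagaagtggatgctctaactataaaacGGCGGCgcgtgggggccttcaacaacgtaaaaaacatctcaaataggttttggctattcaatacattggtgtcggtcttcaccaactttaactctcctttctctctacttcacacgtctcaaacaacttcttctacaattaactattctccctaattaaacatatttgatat
A match describes the letters only, and binding was not measured.

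The 28 other cuticle genes, taken from a list of relatives, exporters, regulators and further enzymes, also held more DEGs in the direction of floral buds than of seedlings. The 13 relatives were listed for their enzyme family, and whether each has a part in the cuticle was not tested. This list too was chosen with earlier results of these data known, so its counts are a description only. Of the 28 genes 24 were tested, and 14 of these were DEGs higher in floral buds, 3 were DEGs lower in floral buds and 7 did not pass. Over all tested genes, 10.3% were DEGs higher in floral buds and 9.52% were DEGs lower. Their median log2 fold change was 1.96, or 1.42 with genes at 0 in a stage set to their lower bound, and thus below the 3.42 of the 10 genes. GPAT7, CYP86A2, SHN2 and MYB106 were not tested because they had fewer than 5 reads in all. CYP86A2, SHN2 and MYB106 overlap other annotated genes on the opposite strand. Whether the assignment of reads lowered their counts was not tested.

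Relatives from the same enzyme families were DEGs higher in floral buds in 7 of 11 tested cases, against 10.3% of all tested genes. CYP86A7 had 58 and 46 reads in floral buds and 0 and 0 in seedlings, at least 13.2-fold higher against a floor of 3 reads per library (edgeR FDR 7.16e-18). CUS1, the closest relative of CUS2, had 331 and 287 reads in floral buds, against 45 and 48 in seedlings, and was 5.08-fold higher in floral buds (log2 2.34, SE 0.21, FDR 4.13e-27). CUS2 made up 73.1% and 74.9% of the reads of CUS2 and CUS1 in floral buds, against 11.8% and 4.00% in seedlings, a share computed after the values had been seen. The other relatives higher in floral buds were CYP77B1, GPAT5, GPAT1, LACS1 and BDG3, with log2 fold changes of 3.27, 3.15, 2.69, 2.15 and 1.55. The call of BDG3 held under 9 of 14 alternatives and that of GPAT1 under 12 of 14, both being lost with DESeq2 and limma-voom. The log2 fold change of GPAT1, with 4 and 1 seedling reads, moved with the alternatives, below 2.69 under some and up to 3.95 at its highest. LACS1 acts with LACS2 in cutin and wax synthesis, and LACS2 made up 31.7% and 37.4% of their summed reads in floral buds, against 30.0% and 22.8% in seedlings, so that here the shares lay close together. GPAT3 was the relative that was lower in floral buds, with 8 and 5 reads in floral buds and 39 and 39 in seedlings (log2 -2.95, SE 0.45, FDR 1.15e-09).

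The 2 genes listed for finishing the monomers were DEGs in opposite directions, and the gene listed for breakdown of cutin was lower in floral buds. HTH (HOTHEAD), an oxidoreductase that is thought to make dicarboxylic acids, had 196 and 199 reads in floral buds, against 32 and 41 reads in seedlings (log2 2.05, SE 0.23, edgeR FDR 7.02e-17). DCF, an acyltransferase that feruloylates cutin monomers, had 3 and 5 reads in floral buds, against 23 and 17 reads in seedlings (log2 -2.66, SE 0.58, FDR 5.57e-05). CDEF1, a cutinase that degrades the polymer, was also lower in floral buds, with 34 and 24 reads against 70 and 93 reads in seedlings (log2 -1.87, SE 0.28, FDR 8.70e-10).

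Export genes were DEGs higher in floral buds in 3 of 5 cases, against 10.3% of all tested genes. ABCG13, a transporter needed for flower cuticles, had 35 and 42 reads in floral buds, against 2 and 6 reads in seedlings (log2 2.86, SE 0.51, edgeR FDR 4.18e-07), with a range of 2.31 to 3.79 on the log2 scale over the alternatives. The lipid transfer protein genes LTPG2 and LTPG1 were higher in floral buds by log2 fold changes of 1.29 and 1.00, the value of LTPG1 lying just past the fold limit and its call holding under 8 of 15 alternatives. The transporter genes ABCG32 and ABCG11 had log2 fold changes of 0.70 and 0.68 and did not pass (FDR 0.0779 and 0.105).

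Among the regulators, 3 of 5 tested genes were DEGs higher in floral buds, against 10.3% of all tested genes. SHN1, an ERF factor whose overexpression activates cutin genes, had 122 and 94 reads in floral buds and 0 and 0 in seedlings, at least 27.4-fold higher (edgeR FDR 3.48e-34). SHN3, a related factor, had 15 and 13 reads in floral buds, against 0 and 1 in seedlings, a ratio of 21.4 with an exact interval of 3.54 to 877. MYB16, a MYB factor of epidermal cells, had 35 and 37 reads in floral buds, against 10 and 5 in seedlings (log2 1.87, SE 0.46, FDR 3.91e-04). With DESeq2 the calls of SHN3 and MYB16 were lost (highest FDR over the alternatives 0.0866 and 0.0680), that of MYB16 also with glmTreat, and that of SHN1 held. CFL1 and HDG1 did not pass (FDR 0.746 and 0.530).

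**Figure D3:**
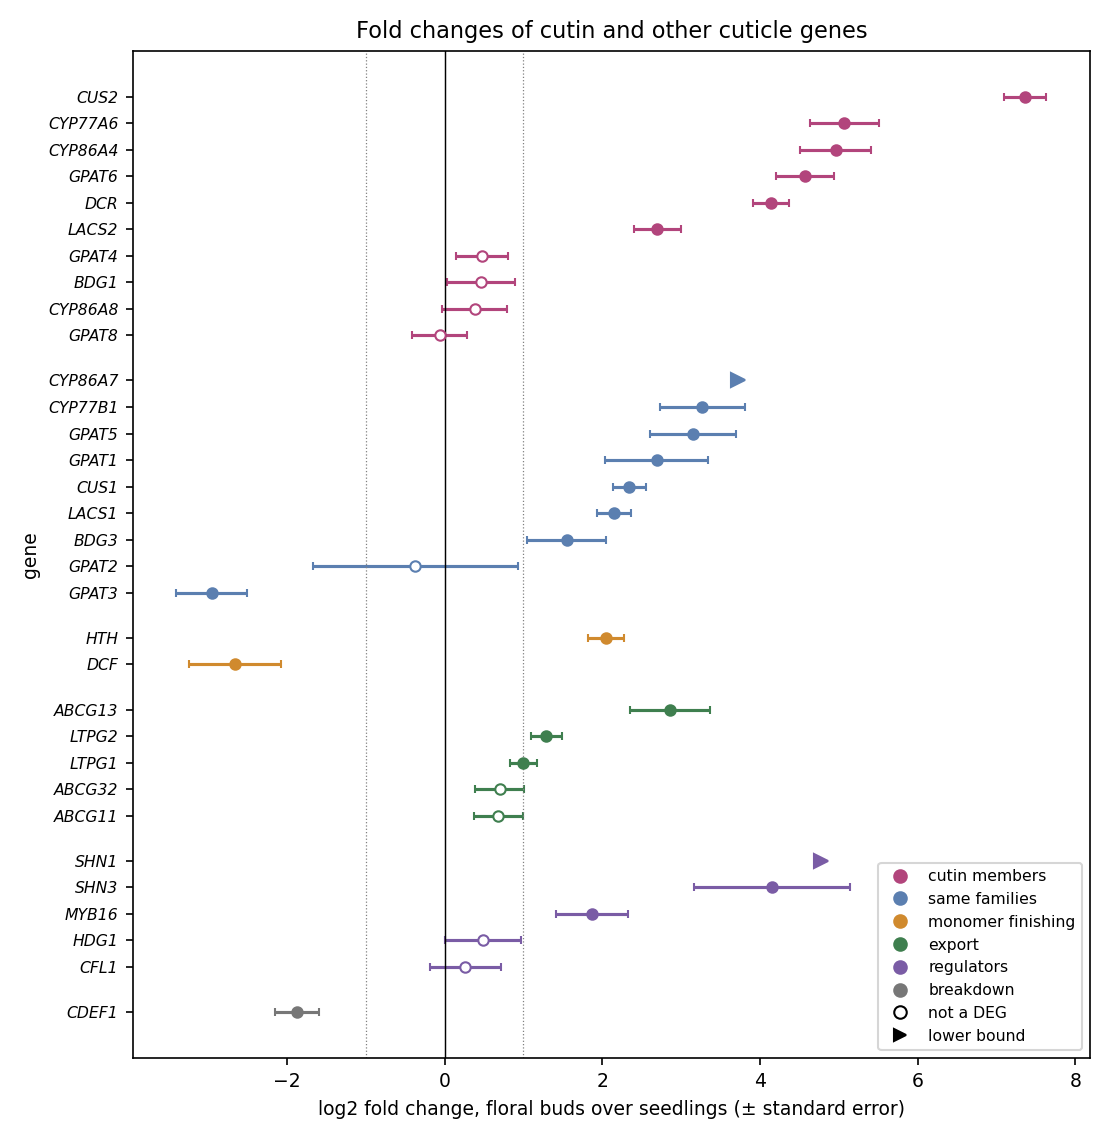
Log2 fold change (floral buds over seedlings) with its standard error for the 10 cutin synthesis genes at the top and other cuticle genes by role below. Filled symbols are DEGs, open symbols are not, triangles are lower bounds for genes at 0 in seedlings, dotted lines mark a fold change of 2, and CYP77A4 and CYP77A7, at 0 in seedlings and not DEGs, are not drawn.

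Cutin is made in the epidermis, and floral buds and seedlings differ in their makeup of organs. In bulk samples, fewer cells of a type and less RNA per cell cannot be told apart. The 5 epidermis markers (ATML1, PDF2, PDF1, FDH and ACR4) summed to 794 and 966 normalized CPM in floral buds, against 522 and 429 in seedlings. Of these 5, PDF1 (log2 fold change 1.26, edgeR FDR 1.83e-11) and PDF2 (1.02, FDR 0.0236) were DEGs higher in floral buds, the call of PDF2 holding under 7 of 15 alternatives, and 3 were not DEGs. The 10 cutin genes summed to 2623 and 2597 normalized CPM in floral buds, against 254 and 207 in seedlings. Per read of the epidermis markers there were thus 3.30 and 2.69 reads of the 10 cutin genes in floral buds, against 0.486 and 0.482 in seedlings, a ratio chosen after the values had been seen. In floral buds CUS2 (42.8% and 46.6%) and DCR (25.7% and 21.0%) made up most of these cutin reads. The ratio therefore does not describe each gene. GPAT4, GPAT8, CYP86A8 and BDG1 had log2 fold changes between -0.06 and 0.47 and were not DEGs. The difference in the summed cutin genes was larger than that in the marker sum in these libraries, and the part of tissue makeup in it was not tested.

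**Figure D4:**
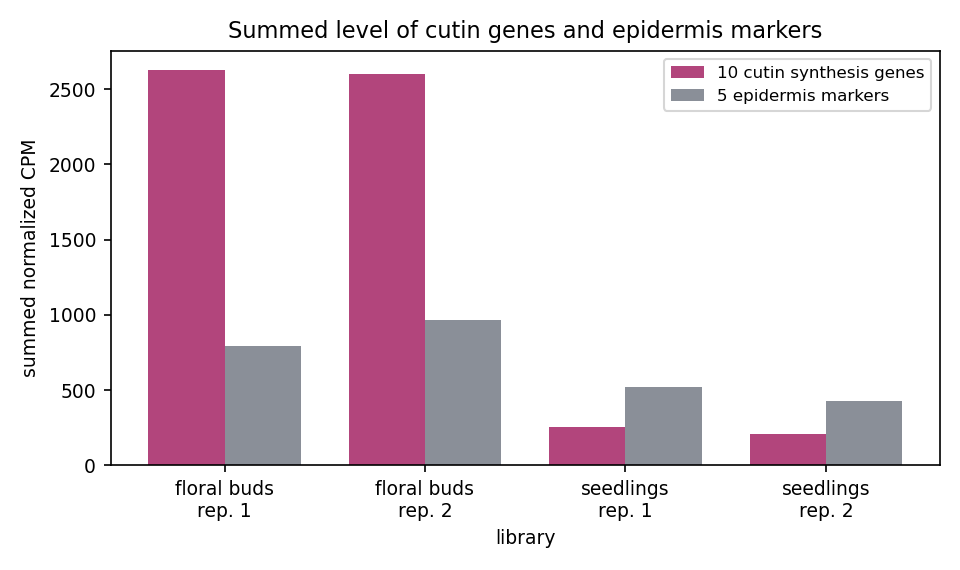
Summed normalized CPM of the 10 cutin synthesis genes and of the 5 epidermis markers in each library, with 1 bar per library and gene set. The cutin genes reach 2623 and 2597 in floral buds, against 254 and 207 in seedlings, and the epidermis markers 794 and 966 in floral buds, against 522 and 429 in seedlings.

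The labels of the libraries were checked with further markers. The 5 floral organ genes (AP1, AP3, PI, AG and SEP3) summed to 1175 and 1083 normalized CPM in floral buds, against 10.6 and 5.08 in seedlings. The green tissue markers CAB1 and LHCB3 summed to 3684 and 3471 in floral buds, against 19618 and 20177 in seedlings. Among the root markers, PYK10 stood at 6.23 and 0 normalized CPM in floral buds, against 1375 and 1298 in seedlings. CASP1 had 0 and 0 reads in floral buds, against 23 and 18 in seedlings. CASP2 had 0 and 0 reads in floral buds, against 4 and 4 in seedlings, and its call held under 7 of 12 alternatives, while NRT2.1, with 0 and 0 reads in floral buds and 0 and 2 in seedlings, was not tested. IRT1 had 20 and 8 reads in floral buds, against 6 and 3 in seedlings, and did not pass the test (edgeR FDR 0.159). Seedling libraries thus held root RNA, and its part in the lower levels of cutin genes in seedlings was not tested. The libraries held between 579350 and 796873 estimated counts, so that 3 counts corresponded to between 3.76 and 5.18 CPM.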

How the data were processed

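Poly(A) RNA of 2 floral bud and 2 seedling samples was sequenced by ONT DRS. The authors called bases with Guppy, aligned reads to TAIR10 with Minimap2 (2.17 in the submitters' processing notes) and assigned them to genes with TrackCluster. In the study's supplementary code reads are joined to genes by overlap with no strand option, and whether a later step used strand is not given in the sources used here. The deposited tables hold estimated counts for each gene, not normalized, of which 83.8% of those above 0 were not whole. A column repeated in a combined table matched the library's own values. Stage and replicate were taken from the labels.

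After rounding to whole numbers, genes whose counts added up to 5 or more were fitted with edgeR 4.0.16 in R 4.3.3, over the whole table and with upper-quartile factors, in place of the quantile normalization named in the study's methods, and the quasi-likelihood test with stage as the only term. DEGs needed an FDR (Benjamini-Hochberg) below 0.05 and a fold change above 2. SEs are approximate, being the log2 fold change over the root of the F statistic. The common dispersion was estimated across genes and no gene had a spread of its own, and the fits were tested on simulated data. Intervals of 95% and the floor of 3 counts cover counting error only.

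Gene positions, promoters and transcripts came from the RefSeq annotation of TAIR10.1, and copies were searched with blastn 2.17.0. The 10 genes, the other cuticle genes and the markers were chosen with earlier results of these data known, and the text names every one of the 10, with the cuticle genes and markers of those lists and neighbours named for their position. Alternatives were TMM or library size alone, DESeq2 1.42.0, edgeR's exact test, limma-voom (3.58.1) with quantile normalization, no filter or a filter of 10 counts in every library, unrounded counts, no fold limit or glmTreat, a replicate block, and leaving out each library. Features of the encoded proteins had been planned and were not analysed here. The value of 1 root marker is not reported here.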

Additional observations from a re-analysis of the deposited data

How the results depend on the processing

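The calls on the 10 cutin genes held under every scaling and tool run. The count of 6 cutin genes higher in floral buds and 0 lower was obtained under 14 of the 15 alternatives. The exception was the filter of at least 10 counts in each library, under which 2 remained (LACS2 and DCR) because the others with few seedling reads were no longer tested. Leaving out each library in turn gave 6 to 6 genes higher and 0 to 0 lower, and 12 to 14 other cuticle genes higher and 3 to 3 lower. Over all tested genes, the 1912 DEGs higher in floral buds became 976 with DESeq2, 1223 with limma-voom, 448 with at least 10 counts in each library and 1154 with glmTreat, and 1513 to 1798 without single libraries. The 1775 DEGs lower in floral buds became 965 with DESeq2, 589 with at least 10 counts in each library and 972 with glmTreat, and 1393 to 1536 without single libraries. Other cuticle genes higher in floral buds were 9 with DESeq2 and 5 with at least 10 counts in each library, where 1 was lower. Signs changed for GPAT4 without seedlings replicate 2 (-0.01) and for GPAT8 with library size alone (0.04) and without floral buds replicate 2 (0.03), none of them past the threshold. Without single libraries the log2 fold changes ran from -0.01 to 1.13 for GPAT4 and from -0.18 to 0.03 for GPAT8. Without single libraries the difference in the GPAT6 share was 53.4 to 59.3 points and that in the CYP86A4 share 60.3 to 69.9 points. With shares per kb they were 54.2 and 65.5 points. An L1 box was found in 1 of the 10 genes in the upstream bases alone.

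Libraries with the same replicate number showed no shared deviation (correlation of same-numbered deviations -0.0814 over 7195 genes). With 2 libraries per stage this cannot show whether the replicate numbers pair the libraries. With the replicate number as a block there were 1608 DEGs higher and 1487 lower, and 6 cutin genes higher and 0 lower, with 14 and 3 for the other cuticle genes. Depth limited the seedling values of CYP86A4, CYP77A6, GPAT6 and CUS2, each with fewer than 10 reads in both seedling libraries together, so their fold changes have wide intervals. With 2 libraries per stage a difference of the size seen for GPAT4, CYP86A8 and BDG1 did not pass the test.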
